A study of Mus musculus with 6 samples.

Results

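The 37 genes described here are the MiT/TFE transcription factors Tfeb, Tfe3 and Mitf, the folliculin and Rag proteins that act on them, and proteins of the lysosome that these factors are known to control. They were taken by name, 36 of them among the 22651 genes of the mRNA-sequencing tables, and Ctsf was not analysed here. By role they fell into 3 factors, 4 genes of the folliculin complex and the Rag GTPases, 6 lysosomal membrane proteins, 7 lysosomal proteases (6 cathepsins and Tpp1), a group of 8 made up of glycosidases and the thioesterase Ppt1, 3 soluble cofactors and 5 subunits of the vacuolar ATPase (V-ATPase). All 36 passed the filter on low counts and were tested.

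The expression profiles were obtained from telencephalon tissues of 3 WT and 3 TSC1 mice at postnatal day 0. TSC1 mice carried the genotype TSC1 flox/flox;Emx1-cre/+ and WT mice were Cre-negative littermates, TSC1 flox/flox;Emx1 +/+, so that every mouse was homozygous for the floxed Tsc1 allele and the groups differed in the Emx1-cre allele. The Cre recombinase is driven by Emx1 in the embryonic dorsal cortex, while whole telencephalon was sequenced, so cells without recombination contributed to every TSC1 library. In such bulk tissue, fewer cells of a type and less RNA per cell cannot be told apart.

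Lysosomes degrade material delivered by endocytosis and autophagy, and their surface is also where the kinase complex mTORC1 is recruited and activated. TSC1, together with TSC2, restrains mTORC1 through the small GTPase Rheb, so loss of TSC1 hyperactivates mTOR signaling. Active mTORC1 phosphorylates TFEB, TFE3 and MITF at the lysosome and holds them in the cytoplasm. This recruitment needs the heterodimer of RagA or RagB with RagC or RagD, and folliculin with its partners FNIP1 and FNIP2 acts as the GTPase activating protein for RagC and RagD. When dephosphorylated, the factors enter the nucleus and bind the CLEAR motif, whose core is the E-box CACGTG, in promoters of lysosomal genes. The comparison asked whether the mRNAs of these factors, of their regulators and of lysosomal genes differed between TSC1 and WT telencephalons.

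The libraries held between 14119365 and 17772865 expected counts, at which 3 counts of a gene equalled 0.169 to 0.212 CPM (counts scaled to the library total). Tsc1 itself was at 50.2, 32.0 and 28.4 TPM (expression corrected for transcript length and scaled per library) in the WT mice and at 27.1, 21.7 and 22.4 TPM in the TSC1 mice, a difference with p = 0.1 in a two-sided exact permutation test, the smallest p that 3 against 3 mice allow. The gene value of Tsc1 also counts reads outside the deleted exons. The telencephalon markers matched the label, with Tbr1 between 140.2 and 175 TPM and Emx1 between 36.2 and 47.4 TPM over the 6 mice. TSC1 replicate 3 stood apart from its group, lying at -3.95 on the first principal component against 26.5 and 30.3 for the other TSC1 mice and -26.3 to -7.43 for WT. Replicate 3 of each group had Xist at 0.48 and 0.66 TPM and carried Y-linked reads, whereas Xist was between 442 and 510 TPM in the other 4 mice. Summed choroid plexus markers (Ttr, Folr1, Kl and Otx2) were 1157 to 2440 TPM in WT and 27.2 to 853 TPM in TSC1, and endothelial markers were 173 to 231 against 147 to 177 TPM. The part of these differences in the results below was not tested.

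Of the 36 genes, 1 was up-regulated in TSC1 and none was down-regulated by edgeR at a Benjamini-Hochberg adjusted p under 0.05. This gene was Rragd, which encodes RagD. Among all 13969 tested genes, 0.859% were called higher and 0.659% lower. By DESeq2, 5 of the 36 were called higher, namely Rragd, Flcn, Fnip1, Fnip2 and Lamp2, against 2.61% of all genes, and 0 were called lower, as with limma. At an unadjusted edgeR p under 0.05, 8 genes were higher and 1, Mitf, was lower, where all genes gave 9.04% and 8.93%. In TPM, all 3 TSC1 mice lay above all 3 WT mice for 14 genes and below them for 1, compared with 12.3% and 10.3% of all genes, and the groups overlapped for 21.

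The fold changes of the 36 genes were small. The median log2 fold change (TSC1 over WT, edgeR) was 0.0995 and 25 genes, or 69.4%, lay above 0, against a median of -0.0027 and 49.3% above 0 over all tested genes. The role groups differed in their medians, from -0.48 for the 3 factors to 0.38 for the folliculin and Rag genes. The lysosomal membrane proteins and the soluble cofactors stood at 0.24 and 0.22, the V-ATPase subunits at 0.0947, the glycosidases and Ppt1 at 0.0035 and the proteases at -0.0397. The same genes varied little between mice of a group, with a median SD of log2 CPM of 0.0832 in WT and 0.113 in TSC1, where all tested genes had 0.129 and 0.131. Their median level was also higher, at 50.3 TPM against 26.4 TPM for all tested genes, and the spread was not compared at matched levels.

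**Figure D1:**
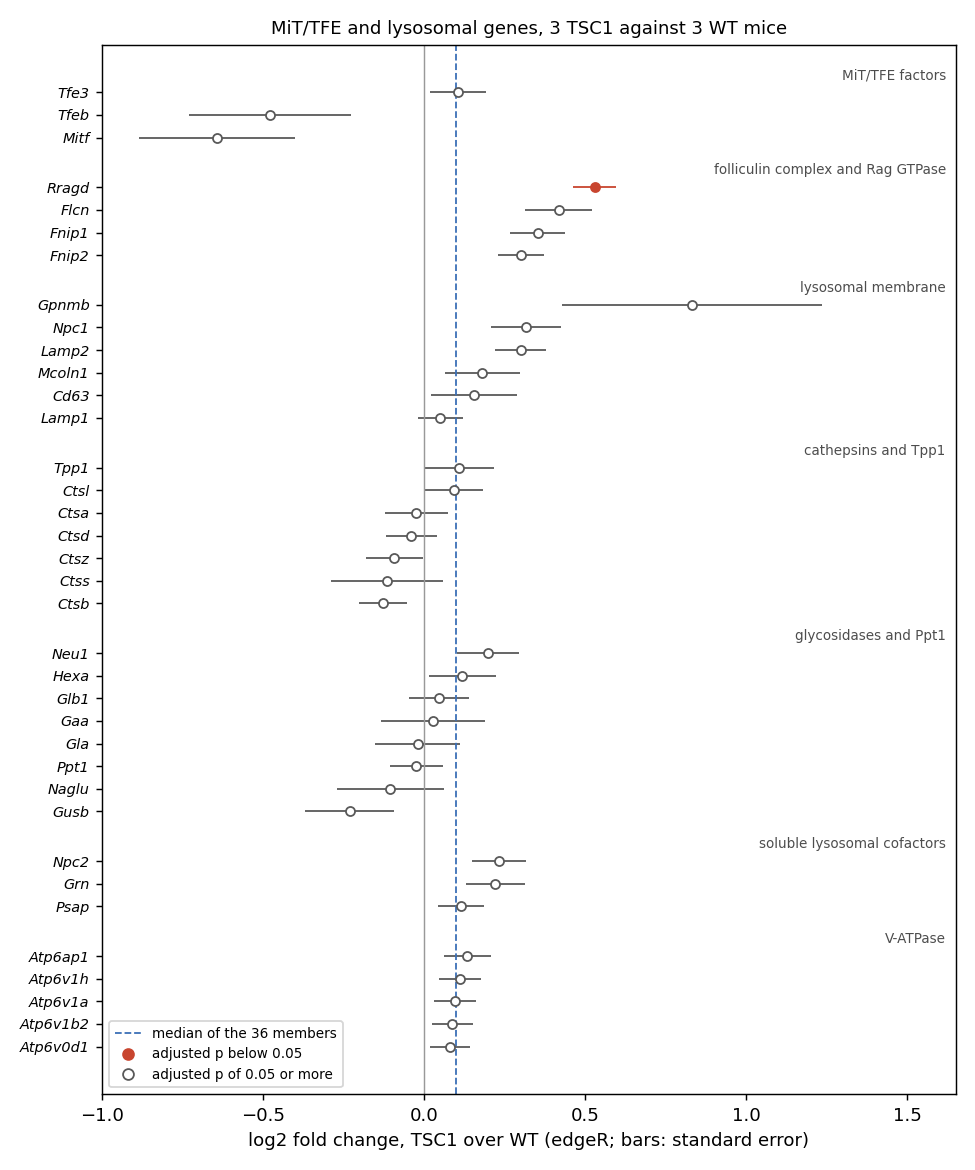
Log2 fold change (TSC1 over WT, edgeR, 3 mice per group) of the 36 genes in order of role, with bars for the standard error, a filled point for an adjusted p below 0.05 and a dashed line at the median of 0.0995. Rragd is the filled point, all 4 folliculin and Rag genes lie between 0.30 and 0.53, and Tfeb, Mitf and Gpnmb have the widest bars.

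Rragd showed the clearest difference. RagD is the Rag GTPase that, like RagC, brings the MiT/TFE factors to mTORC1, and its own gene is a known target of these factors. It was at 56.7, 54.4 and 50.7 TPM in WT and at 78.5, 83.7 and 75.6 TPM in TSC1, with expected counts from 1350 to 2210. The lowest TSC1 mouse thus lay well above the highest WT mouse. Rragd was up-regulated 1.44-fold (log2 fold change 0.53, SE 0.0675, edgeR adjusted p = 0.0104). Leaving out WT replicate 2, WT replicate 3 or TSC1 replicate 2 gave adjusted p = 0.0656, 0.0711 and 0.0519 by edgeR, with log2 fold changes of 0.54, 0.51 and 0.48. The call was thus lost in each of these 3 fits. Of all tested genes, 24, 26 and 33 were called higher in them, against 120 with all mice. The fold change of Rragd did not leave 0.48 to 0.55 when any single mouse was left out. Rragd lies at chr4:32982998-33022180 (GRCm38). Its 250 bases upstream of the start, chr4:32982748-32982997 on the plus strand, are shown because Rragd was the called gene, and they held 0 copies of the core:
Rragd: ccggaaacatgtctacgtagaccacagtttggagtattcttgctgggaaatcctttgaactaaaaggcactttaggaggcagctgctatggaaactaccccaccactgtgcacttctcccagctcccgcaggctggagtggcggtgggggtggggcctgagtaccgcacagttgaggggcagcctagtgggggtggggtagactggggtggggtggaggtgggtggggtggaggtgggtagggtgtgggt

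The genes of the folliculin complex lay in the same direction without passing the test. Flcn (chr11:59791408-59810039) encodes folliculin. It was at 30.9, 27.8 and 26.9 TPM in WT and at 43.5, 39.6 and 32.6 TPM in TSC1 (38.6 ± 5.50 against 28.5 ± 2.09, SD, n = 3). The groups did not overlap, and TSC1 replicate 3 was the nearest to WT. The log2 fold change was 0.42 with SE 0.105 (edgeR adjusted p = 0.0874). Without TSC1 replicate 3, which raised the share of all genes called higher to 2.61%, it was 0.51 with edgeR adjusted p = 0.0192, and the adjusted p by DESeq2 with all mice was 0.0207.

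The partners of folliculin also lay above WT in every TSC1 mouse, and neither passed the test. Fnip1 (chr11:54438107-54518241) was at 29.4, 26.6 and 27.6 TPM in WT and at 41.0, 34.3 and 33.5 TPM in TSC1. Its log2 fold change was 0.35 (SE 0.0844, edgeR adjusted p = 0.0752), with adjusted p = 0.0357 without TSC1 replicate 3 and 0.0173 by DESeq2. These fits called 368 and 342 of all tested genes higher, against 120 by edgeR with all mice. Every TSC1 mouse was above every WT mouse. Fnip2 (chr3:79455971-79568151), the second such partner, was at 29.3, 25.2 and 25.8 TPM in WT and at 34.6, 33.8 and 32.2 TPM in TSC1. Its log2 fold change was 0.30 (SE 0.0723, edgeR adjusted p = 0.0754). The adjusted p was 0.0284 by DESeq2 and 0.0426 by edgeR without WT replicate 1. That last fit called 280 of all tested genes higher, against 120 with all mice. For Fnip2 too the groups did not overlap, so all 4 genes of this role group were higher in every TSC1 mouse than in any WT mouse, as were 12.3% of all tested genes. The median of the 4 genes, as log2 CPM less the WT mean, was 0.49, 0.39 and 0.26 in TSC1 replicates 1, 2 and 3, and between -0.0464 and 0.0606 in the WT mice. No exon of another gene overlapped these 4 genes in the GENCODE annotation.

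The Fnip1 promoter holds the core once, 75 bases before the RefSeq start (chr11:54438092-54438121, plus strand). It is shown with the core in capitals, for comparison with the Rragd sequence above:
Fnip1: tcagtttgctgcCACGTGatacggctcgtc

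The genes encoding the factors themselves showed no increase that passed the test. Tfeb (chr17:47737037-47792416), a master regulator of lysosome formation, was low, at 2.25, 3.32 and 2.80 TPM in WT and at 2.28, 1.76 and 2.1 TPM in TSC1. The groups overlapped, and with only 20 to 50 counts per mouse the fold change was imprecise (log2 fold change -0.48, SE 0.251, edgeR adjusted p = 0.355). Mitf (chr6:97807002-98021360), known as the regulator of pigment cells, was at 2.77, 1.99 and 1.87 TPM in WT and at 1.38, 1.08 and 1.73 TPM in TSC1. All TSC1 mice lay below all WT mice, as for 10.3% of all tested genes, and this was the single gene of the 36 to do so. Its log2 fold change was -0.64 (SE 0.243), with an unadjusted p of 0.0261 in the fit across all genes and an edgeR adjusted p of 0.204. The effective length of Mitf, which depends on the isoforms expressed, was 4531 to 4672 bases in WT and 4690.3 to 4722 bases in TSC1.

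Tfe3, by contrast, was the most abundant of the factors in this tissue. It was at 24.7, 24.3 and 24.0 TPM in WT and at 28.3, 24.8 and 27.1 TPM in TSC1, about the median level of tested genes. The TSC1 mice were all above WT, although TSC1 replicate 2 was above the highest WT mouse by far less than the WT mice differed among themselves. The log2 fold change was 0.10 (SE 0.0867, edgeR adjusted p = 0.567). Tfe3 is X-linked (chrX:7762530-7775202), and the mice of the groups were matched for Xist, with 2 high and 1 low in each. Expression of these factors as mRNA is no measure of their activity, which depends on phosphorylation and was not measured by these libraries.

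**Figure D2:**
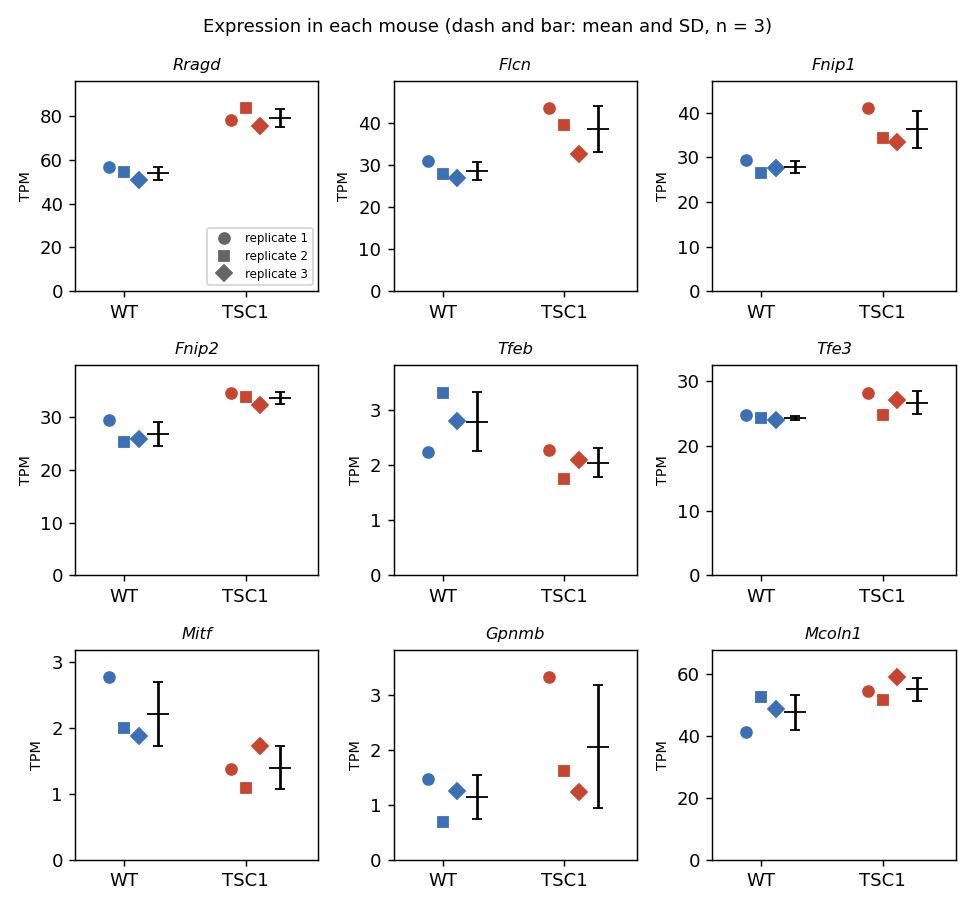
Expression in TPM of 9 genes in each of the 6 mice (circles, squares and diamonds are replicates 1, 2 and 3, and the dash and bar give the mean and SD of 3 mice). Rragd, Flcn, Fnip1 and Fnip2 are higher in every TSC1 mouse than in any WT mouse, whereas Tfeb, Gpnmb and Mcoln1 overlap and Gpnmb is high in TSC1 replicate 1 alone.

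Among lysosomal membrane proteins, all 6 fold changes were above 0 and none passed the test by edgeR. Lamp1, the abundant glycoprotein that lines the lysosomal membrane, was at 412, 430.4 and 420.0 TPM in WT and at 439, 425 and 471 TPM in TSC1, with groups that overlapped (log2 fold change 0.050, SE 0.0696, edgeR adjusted p = 0.745). Lamp2, which acts in chaperone-mediated autophagy and in lysosome fusion, was at 70.5, 66.7 and 68.7 TPM in WT and at 93.1, 74.6 and 83.8 TPM in TSC1. It was the only gene of this group without overlap between the genotypes, with TSC1 above WT, as for 12.3% of all tested genes. Its log2 fold change was 0.30 (SE 0.0804, edgeR adjusted p = 0.101, and 0.0475 by DESeq2). The effective length of Lamp2, which likewise depends on the isoforms, was longer in every TSC1 mouse (2921 to 2984 bases) than in every WT mouse (2860.4 to 2901 bases), and with effective lengths in the fit its log2 fold change was 0.26 (edgeR adjusted p = 0.157).

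Npc1, the cholesterol exporter of the lysosomal membrane, was at 30.6, 24.6 and 24.1 TPM in WT and at 37.0, 34.8 and 28.8 TPM in TSC1. WT replicate 1 lay above TSC1 replicate 3. The log2 fold change was 0.32 (SE 0.109, edgeR adjusted p = 0.176), and 0.41 with adjusted p = 0.0494 without TSC1 replicate 3. That last fit called 368 of all tested genes higher, against 120 with all mice. Lamp2 and Npc1 are given in full because an alternative fit called them, which was known only after their values were seen. Cd63, a tetraspanin of lysosomes and exosomes, was at 46.7, 45.8 and 36.7 TPM in WT and at 56.8, 47.2 and 43.9 TPM in TSC1, and its log2 fold change of 0.15 (SE 0.133) had an edgeR adjusted p of 0.583.

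Mcoln1 encodes the calcium channel TRPML1, through which lysosomal calcium release leads to dephosphorylation of TFEB. It was at 41.3, 52.5 and 48.7 TPM in WT and at 54.5, 51.6 and 58.9 TPM in TSC1. The lowest TSC1 mouse lay below WT replicate 2. The log2 fold change was 0.18 (SE 0.117, edgeR adjusted p = 0.454). Its promoter, chr8:3500269-3500518 on the plus strand, is shown with both copies of the core in capitals, of which the one nearer the start belongs to the longer palindrome TCACGTGA:
Mcoln1: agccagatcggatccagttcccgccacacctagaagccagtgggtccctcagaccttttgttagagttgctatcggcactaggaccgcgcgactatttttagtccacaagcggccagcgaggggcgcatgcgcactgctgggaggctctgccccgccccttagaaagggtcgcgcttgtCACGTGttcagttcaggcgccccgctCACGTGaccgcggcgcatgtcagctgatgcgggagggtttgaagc

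Gpnmb, a glycoprotein of phagocytes and pigment cells and a known target of MITF and TFE3, had the largest fold change and the largest error. It was at 1.47, 0.69 and 1.25 TPM in WT and at 3.32, 1.61 and 1.23 TPM in TSC1, from 17 to 67 counts per mouse. TSC1 replicate 1 was high, while TSC1 replicate 3 was within the WT range. The log2 fold change was 0.83 (SE 0.404, edgeR adjusted p = 0.32) and lay between 0.32 and 1.10 when single mice were left out. The summed TPM of 4 melanocyte markers (Dct, Pmel, Tyr and Tyrp1) was 2.15 to 2.91 in WT and 3.64 to 5.08 in TSC1, of which Dct made up most in TSC1, and microglial markers (12 genes) summed to 203 to 276 and to 191 to 283. Of the 4 melanocyte markers, only Dct passed the filter on low counts (log2 fold change 1.09, edgeR adjusted p = 0.0861). Pmel went the other way, at a mean of 0.63 TPM in WT and 0.30 TPM in TSC1. Tyr and Tyrp1 averaged 0.19 and 0.11 TPM in WT and 0.30 and 0.14 TPM in TSC1. Of the 12 microglial markers, 8 had fold changes below 0 and 4 above, with a median of -0.28. Fcrls among them was called lower (log2 fold change -0.75, edgeR adjusted p = 0.0391), as were 0.659% of all tested genes. No marker of the melanocyte and microglial lists was at 0 in every mouse, and the part of these cells in the Gpnmb value was not tested.

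No lysosomal protease passed the test. Of the 6 cathepsins and Tpp1, 2 had fold changes above 0 and 5 below, with edgeR adjusted p from 0.397 to 0.922. The genotypes overlapped for all 7. Of all 13969 tested genes, 49.3% had fold changes above 0 and the genotypes overlapped for 10805. Ctsd, the aspartic protease cathepsin D and the most abundant of them, was at 246, 244 and 259 TPM in WT and at 264, 223 and 257 TPM in TSC1. The TSC1 mice thus spanned the WT range on both sides. Its log2 fold change was -0.040 (SE 0.0782, edgeR adjusted p = 0.827), and the sign turned when WT replicate 3 or TSC1 replicate 2 was left out (0.006 and 0.025). The cysteine proteases lay from -0.13 for Ctsb to 0.091 for Ctsl, with Ctsz at -0.093 and Ctss at -0.12. Ctss, cathepsin S of microglia, was at 32.9, 20.8 and 23.2 TPM in WT and at 27.3, 24.2 and 20.9 TPM in TSC1. Ctsa, the protective protein of the neuraminidase complex, was at -0.025, and Tpp1, a peptidase mutated in a form of neuronal ceroid lipofuscinosis, at 0.11.

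Glycosidases and Ppt1 were split evenly, with 4 fold changes above 0 and 4 below. Ppt1, the palmitoyl-protein thioesterase and the most abundant of them, was at 73.4, 74.2 and 76.2 TPM in WT and at 75.7, 69.0 and 79.8 TPM in TSC1 (log2 fold change -0.025, SE 0.0828, edgeR adjusted p = 0.904). On log2(TPM + 1) with limma it was 0.001. Neu1, the lysosomal sialidase, was the only gene of this group without overlap. All its TSC1 mice lay above all WT mice in TPM, as for 12.3% of all tested genes. It was at 16.1, 17.1 and 16.6 TPM in WT and at 19.1, 18.4 and 20.6 TPM in TSC1. Its log2 fold change of 0.20 (SE 0.0968) did not pass (edgeR adjusted p = 0.325). The lowest value was that of the beta-glucuronidase Gusb, at -0.23 (SE 0.138, edgeR adjusted p = 0.416). Between them stood Hexa, a subunit of beta-hexosaminidase, at 0.12, the beta-galactosidase Glb1 at 0.046, the glycogen-degrading Gaa at 0.028, the alpha-galactosidase Gla at -0.021 and Naglu, an enzyme of heparan sulfate degradation, at -0.11. Gla and Naglu were the least abundant, at 8.77 and 7.39 TPM over all mice.

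The soluble cofactors were higher in all TSC1 mice than in any WT mouse, as were 12.3% of all tested genes, and none of the 3 passed the test. Psap, the precursor of the saposins that assist sphingolipid degradation, had the highest level of all 36 genes. It was at 652, 643 and 624 TPM in WT and at 695, 671 and 750.5 TPM in TSC1 (log2 fold change 0.11, SE 0.0701, edgeR adjusted p = 0.43). Npc2, the cholesterol carrier that hands its load to NPC1, was at 61.4, 68.8 and 57.7 TPM in WT and at 79.8, 75.8 and 69.6 TPM in TSC1 (log2 fold change 0.23, SE 0.0845, edgeR adjusted p = 0.191). TSC1 replicate 3 lay closest to WT. Grn, the precursor of progranulin, was at 53.6, 56.1 and 46.1 TPM in WT and at 67.8, 59.6 and 58.2 TPM in TSC1 (log2 fold change 0.22, SE 0.0924, edgeR adjusted p = 0.252).

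The 5 V-ATPase genes, which encode parts of the proton pump that acidifies the lysosome, were all high, and none passed the test. Their levels averaged between 204 and 324 TPM, and all 5 fold changes lay between 0.080 and 0.13, with edgeR adjusted p from 0.377 to 0.544. Atp6v0d1, a subunit of the membrane sector and the most abundant, was at 313, 315 and 306 TPM in WT and at 334, 354 and 322 TPM in TSC1. Its log2 fold change was 0.080 (SE 0.063, edgeR adjusted p = 0.544). For Atp6v0d1, Atp6v1h, Atp6v1b2 and Atp6ap1 all TSC1 mice exceeded all WT mice in TPM (12.3% of all tested genes did), and for the catalytic subunit Atp6v1a WT replicate 1 (209 TPM) lay within the TSC1 range of 207 to 220 TPM. Neuronal markers, for comparison, summed to 8992 to 9270 TPM in WT and to 9014 to 9971 TPM in TSC1, and their part in these values was not tested.

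**Figure D3:**
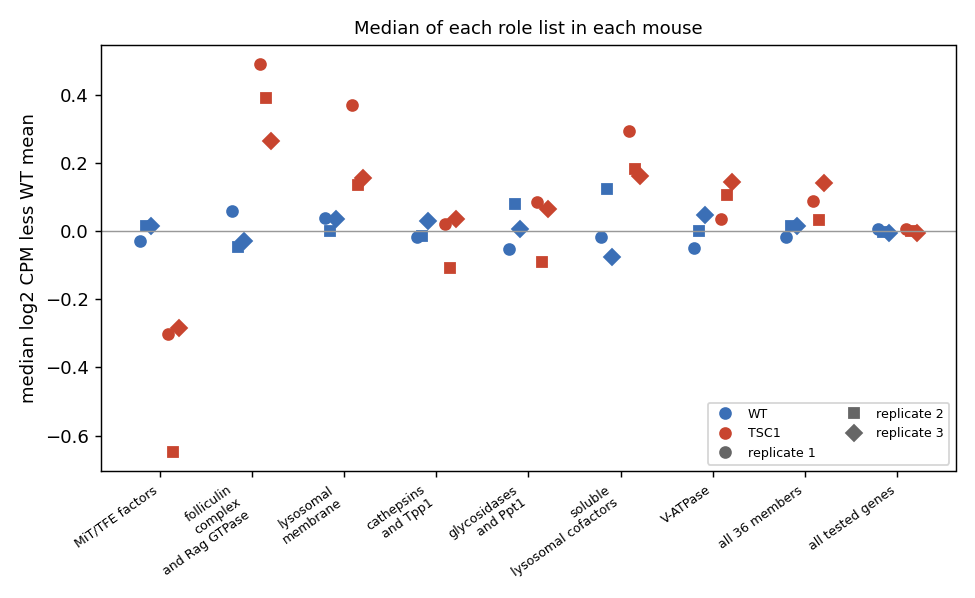
Median over the genes of each role group, of all 36 genes and of all tested genes, as log2 CPM less the WT mean, in each of the 3 WT (blue) and 3 TSC1 (red) mice. The folliculin and Rag genes lie at 0.49, 0.39 and 0.26 in TSC1, the proteases and glycosidases straddle 0, and the median of all 36 genes is 0.0894, 0.0316 and 0.141 in TSC1 replicates 1, 2 and 3.

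The TSC1 mice differed in how many of the 36 genes lay above the WT mean. It was 28, 20 and 29 of 36 in TSC1 replicates 1, 2 and 3, and 17, 20 and 21 in the WT mice. Of all tested genes 51.1%, 49.9% and 48.6% lay above the WT mean in these TSC1 mice and 51.9%, 49.2% and 48.2% in the WT mice. TSC1 replicate 2 had the lowest TSC1 value for 20 genes and the highest for 3, whereas replicates 1 and 3 had the highest for 17 and 16. The same replicate 2 had the lowest sums of all mice for microglial (191 TPM), border macrophage (35.1 TPM), astrocyte (395 TPM), oligodendrocyte lineage (183 TPM) and endothelial markers (147 TPM). It had the highest sums of neuronal (9971 TPM) and telencephalon markers (877 TPM). Its choroid plexus and melanocyte sums were neither the lowest nor the highest. The role of these cells in the level of that mouse was not tested. Leaving out TSC1 replicate 2 raised the median log2 fold change of the 36 genes from 0.099 to 0.144, and leaving out TSC1 replicate 3 lowered it to 0.065.

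Of 90 further genes of lysosomes, the V-ATPase, autophagy and the Rag-Ragulator machinery, 89 were tested and Lipa was not analysed here. By edgeR 2 were up-regulated and 0 down-regulated, beside 0.859% and 0.659% of all tested genes. With DESeq2 the counts were 5 and 0, where 2.61% of all genes were called higher. At an unadjusted edgeR p under 0.05 they were 16 and 2, where all genes gave 9.04% and 8.93%. The called genes were Ids and Atp6ap2, both X-linked. Ids, the iduronate sulfatase of heparan and dermatan sulfate degradation, was at 337, 297 and 306 TPM in WT and at 399, 423 and 398 TPM in TSC1 (log2 fold change 0.35, SE 0.0682, edgeR adjusted p = 0.0471). Atp6ap2, the prorenin receptor and an accessory V-ATPase subunit, was at 178, 174 and 182 TPM in WT and at 228, 229 and 258 TPM in TSC1 (log2 fold change 0.39, SE 0.0767, edgeR adjusted p = 0.0471).

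Both calls lay close to the threshold. That of Ids was lost without WT replicate 2, WT replicate 3, TSC1 replicate 1 or TSC1 replicate 2 (edgeR adjusted p = 0.226, 0.153, 0.155 and 0.199). In these fits 24, 26, 33 and 33 of all tested genes were called higher, against 120 with all mice. The call of Atp6ap2 was lost when any mouse other than TSC1 replicate 3 was left out (edgeR adjusted p from 0.0521 to 0.196). In the 4 mice with high Xist, the log2 fold changes of Ids and Atp6ap2 were 0.36 and 0.35 with edgeR adjusted p of 0.0765 and 0.0668. DESeq2 also called 3 membrane proteins that edgeR did not, and these were named after their values were seen. They were Ostm1 and Clcn7, which together form the lysosomal chloride-proton exchanger (log2 fold change 0.37 and 0.42, edgeR adjusted p = 0.0549 and 0.0735), and the lipid transporter Abca2 (0.30 and 0.0771). Without TSC1 replicate 3 edgeR called them too, with adjusted p of 0.0224 for Ostm1, 0.018 for Clcn7 and 0.0303 for Abca2. That fit called 368 of all tested genes higher and DESeq2 342, against 120 by edgeR with all mice.

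The wider lists had a median log2 fold change of 0.071, with 62 of 89 genes above 0, against -0.0027 and 49.3% above 0 over all tested genes. Over all 18 V-ATPase subunits measured the median was 0.098, with 14 above 0 and 1 called higher, as were 0.859% of all tested genes. The 29 other hydrolases had a median of 0.13 and spanned Scpep1 at 0.47 to Ctsc at -0.48 (edgeR adjusted p = 0.126 and 0.106). Scpep1 was called without TSC1 replicate 3 (edgeR adjusted p = 0.0308). That fit called 368 of all tested genes higher, against 120 with all mice. Ctsc and Ctsh were the genes lower at an unadjusted p under 0.05, and both are cathepsins that are abundant in myeloid cells. Of the 12 microglial markers, 8 had fold changes below 0 and 4 above, with a median of -0.28. Among them Fcrls alone was called (log2 fold change -0.75, edgeR adjusted p = 0.0391), where 0.659% of all tested genes were called lower. Fcrls kept that call in 2 of 6 fits that left out a mouse, with adjusted p up to 0.167. The part of microglia in the values of Ctsc and Ctsh was not tested.

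The 20 autophagy genes had a median log2 fold change of 0.0524. Among them 15 were above 0, where all tested genes had 49.3%. By edgeR, DESeq2 or limma 0 were called, and edgeR called 0.859% of all tested genes higher and 0.659% lower. At an unadjusted edgeR p under 0.05, 1 was higher, the autophagy kinase Ulk2, where all tested genes gave 9.04%. Sqstm1, the cargo receptor p62, was at -0.035 (SE 0.0847, edgeR adjusted p = 0.864). Of the other Rag and Ragulator genes, none of 9 was called, also with DESeq2 and limma. Rragc, the close relative of Rragd, was at 74.1, 78.5 and 76.3 TPM in WT and at 92.8, 87.5 and 91.8 TPM in TSC1. Its groups did not overlap, with TSC1 above WT as for 12.3% of all tested genes. Its log2 fold change of 0.22 (SE 0.0717) did not pass (edgeR adjusted p = 0.156).

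**Figure D4:**
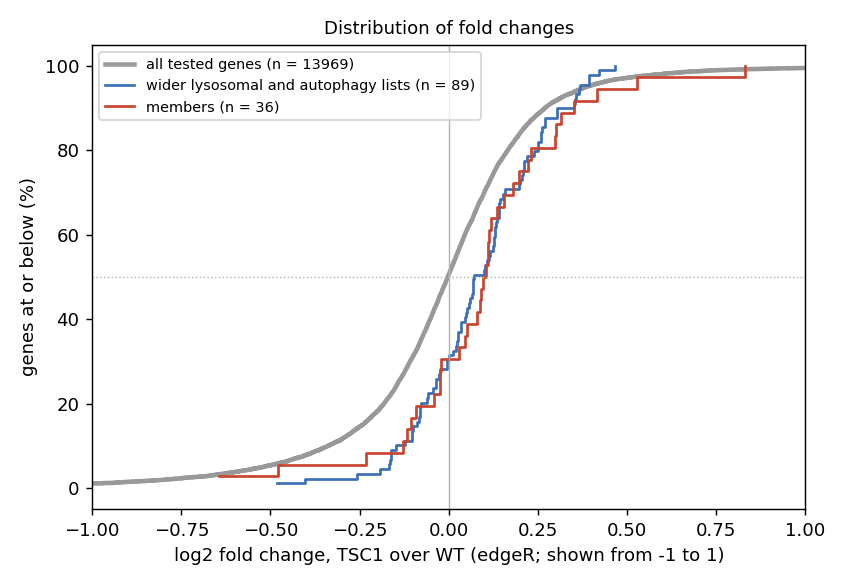
Cumulative percentage of genes at or below each log2 fold change (TSC1 over WT, edgeR) for all 13969 tested genes (grey), 89 genes of the wider lysosomal and autophagy lists (blue) and the 36 genes described here (red), on an axis cut at -1 and 1. Both lists lie to the right of all genes around the middle, with medians of 0.0995 and 0.071 against -0.0027.

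To relate the fold changes to the promoter sequence, the core motif CACGTG, which reads the same on both strands, was searched from 250 bases before to 50 after the RefSeq start of each gene (GRCm38.p6). Of the 32 genes with such a window, 12 (37.5%) held the core and 6 (18.8%) the longer palindrome TCACGTGA, which includes it. Among the tested genes with a window 11.5% and 2.06% did, and among all genes with one 8.09% and 1.12%. The wider lists had 22.4% and 7.46%. The promoter of Lamp1 held 4 copies, and those of Mcoln1, Ctsa, Ctsd and Gla held 2 each. Those of Tfeb, Tfe3, Mitf, Flcn, Fnip2, Rragd and Gpnmb held 0 in this window.

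Sites of the core are given for the genes with the longer palindrome and for Lamp1. These were chosen because their windows carry the motif in its fullest form or in most copies, and the Mcoln1 sites are shown above. The sites below, a single one per gene, are 30 bases each on the strand of the gene with the core in capitals. They lie at chr2:164833749-164833778, plus strand (Ctsa), at chr7:142387908-142387937, minus strand (Ctsd), at chr8:105566050-105566079, minus strand (Atp6v0d1), at chr16:44139373-44139402, minus strand (Atp6v1a), at chrX:134601215-134601244, minus strand (Gla) and at chr8:13159104-13159133, plus strand (Lamp1).
Ctsa: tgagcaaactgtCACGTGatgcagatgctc
Ctsd: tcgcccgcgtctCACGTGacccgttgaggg
Atp6v0d1: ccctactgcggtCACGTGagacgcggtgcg
Atp6v1a: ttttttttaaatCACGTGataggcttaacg
Gla: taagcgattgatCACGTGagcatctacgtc
Lamp1: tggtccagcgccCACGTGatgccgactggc

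The fold changes were then set beside the presence of the core. The 12 with the core had a median log2 fold change of 0.0481 with 8 above 0 and 0 called, and the 20 without it had a median of 0.13 with 14 above 0 and 1 called, as a description with no test. Among the 1181 tested genes with the core the median was 0.0186, with 53.3% above 0 and 16 called, and among the 9082 without it the median was -0.0043, with 48.9% above 0 and 141 called. The genes with the core included Fnip1 at the upper end (0.35) and Naglu at the lower end (-0.11). A match of these letters is no evidence that a factor binds there, and introns and more distant sequence were not searched.

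**Figure D5:**
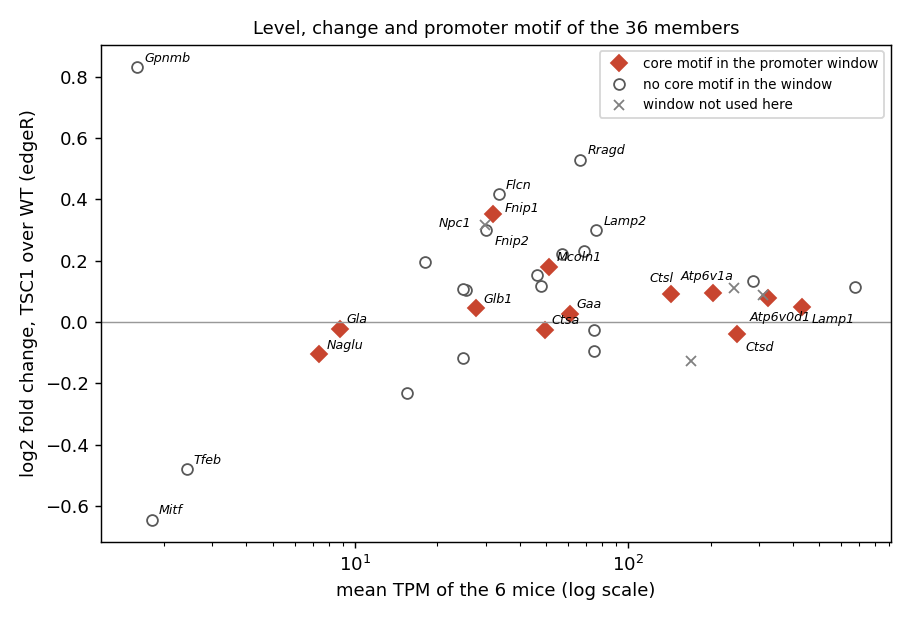
Mean TPM over the 6 mice (log scale) against the log2 fold change (TSC1 over WT, edgeR) of the 36 genes, with diamonds for the 12 genes with the core motif in the promoter window, circles for 20 without it and crosses for 4 whose window was not used. The diamonds lie between -0.11 and 0.35, and the 3 least abundant genes, Gpnmb, Mitf and Tfeb, lie at 0.83, -0.64 and -0.48.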

How the data were processed

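Expression was measured by mRNA-sequencing of telencephalon from 3 WT and 3 TSC1 mice, grouped by the titles of the samples. The authors aligned reads to mm10 and quantified RefSeq genes with RSEM (version 1.2.12, per the labels), whose release is not given in the sources used here. The deposited expected counts are RSEM's estimated reads per gene, without normalization. They were whole within 0.005 for all 36 genes and were rounded. The deposited TPM are counts divided by effective length and scaled per library by RSEM, and the deposited effective length (other) moves with the isoform mix. The library kit named by the authors does not mark strand, and exons of Atp6v1h, Ctsa, Ctsb, Ctsd, Ctsl, Ctsz, Glb1, Lamp1, Npc1 and Ppt1 overlap those of another gene, so these counts are less certain.

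The main test was edgeR's quasi-likelihood test (version 4.0.16, run in R 4.3.3) after filterByExpr and TMM scaling, with Benjamini-Hochberg adjustment over all 13969 tested genes and calls at an adjusted p under 0.05. DESeq2 1.42.0, limma 3.58.1 on log2(TPM + 1) and log2(TPM + 0.1) for genes at 1 TPM or more in at least 3 mice, other scalings and filters, effective length offsets, a replicate block and fits without single mice were alternatives. The fitting code was tested on simulated data. The fold changes of TPM-based fits understate changes of low genes. The study's own permutation method, which pools regroupings of the samples, was not rerun. The SE given with an edgeR fold change was its size divided by the square root of the test's F statistic, so it includes variation between mice. Gene positions are on GRCm38, exon overlaps came from GENCODE vM21 (GRCm38), and promoter windows came from RefSeq (GRCm38.p6). For Fnip1 the gene start given and the RefSeq start of its promoter window differ.

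The genes and lists were chosen with earlier results of these data known. Values per mouse are given for called genes, for Tfeb, Tfe3, Mitf, Flcn, Fnip1, Fnip2, Rragd, Gpnmb and Mcoln1, for the 6 largest fold changes, for the most abundant gene of each role, and for the called or 2 lowest-p genes of the wider lists. Others given in full were added after their values were seen. Summed markers not given in the text were 405 to 547 TPM in WT and 395 to 465 TPM in TSC1 for astrocytes, and 193 to 234 and 183 to 195 TPM for the oligodendrocyte lineage. Of the 6 astrocyte markers, 2 had fold changes above 0 and 4 below. Gfap was called higher (log2 fold change 1.09, edgeR adjusted p = 0.00683), as were 0.859% of all tested genes. Its mean was 38.3 TPM in WT and 82.9 TPM in TSC1. Gja1 lay lowest, at -0.69 (edgeR adjusted p = 0.13).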

Additional observations from a re-analysis of the deposited data

How the results depend on the processing

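The direction of Rragd, Flcn, Fnip1, Fnip2, Lamp2, Npc1, Mcoln1, Gpnmb, Psap, Tfe3, Tfeb and Mitf held in all 16 alternatives, and 0 of the 36 genes were called lower in any. Rragd kept its call in 13. The number called higher was 1 in the fit reported, 5 with DESeq2, 3 with the replicate block and 0 to 4 when single mice were left out, lowest without WT replicate 2, WT replicate 3 or TSC1 replicate 2 and highest without TSC1 replicate 3. The median log2 fold change of the 36 genes was between 0.065 (without TSC1 replicate 3) and 0.144 (without TSC1 replicate 2). Of the wider lists 2 were called higher, but 0 with upper-quartile scaling, 5 with DESeq2, 6 with the replicate block, 0 in the 4 mice with high Xist, an alternative chosen after seeing the data, and 0 to 6 without single mice. Over all genes 212 were called (120 higher, 92 lower), against 641 with DESeq2 (342 and 299), 346 with no filter (175 and 171), 551 with the block (273 and 278), 434 in the 4 mice (149 and 285) and 29 to 799 without single mice (24 to 368 higher and 4 to 431 lower). The sign turned for Ppt1 with limma (0.001 with either offset). Without single mice, log2 fold changes were -0.086 to 0.024 for Ppt1, -0.078 to 0.025 for Ctsd and -0.004 to 0.076 for Lamp1. The cause was not tested.

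The replicate numbers were not shown to pair the mice. The deviations of same-numbered mice correlated at r = 0.267, -0.133 and 0.318 across genes, and WT replicate 2 and TSC1 replicate 2 each correlated best with another number. With the block, Rragd, Flcn and Fnip1 were called (edgeR adjusted p = 0.00648, 0.043 and 0.0426). Low counts limit Tfeb, Mitf and Gpnmb, at 17 to 75 per mouse.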
